A study of Homo sapiens with 9 samples.

Results

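The 48 genes described here promote or restrain the passage from G1 into S phase, or serve the copying of the genome. They were taken by symbol from the 57736 gene rows of a count table made from SKMEL-147 cells, a human melanoma line. The cells expressed Cas9 and were transduced with lentivirus carrying a scrambled control guide (sgScr) or 1 of 2 guides against PHF8 (sgPHF8-1 or sgPHF8-3), with 3 libraries, A, B and C, in each group. PHF8 encodes a histone demethylase, and the comparison asks how the RNA of these genes differed once it was targeted. All 9 libraries were made from total RNA after removal of ribosomal RNA, and the methods name 3 biological replicates. The cells were transduced populations, not described as clones, so a library can hold edited and unedited cells.

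Entry into S phase is governed by the E2F transcription factors, which RB1 and the related pocket protein RBL1 hold in check until cyclin-dependent kinases phosphorylate them. E2F1, E2F2 and E2F3 are mostly activators of replication genes, whereas E2F7 and E2F8 are repressors of the same targets. The origin recognition complex, CDC6 and CDT1 load the MCM helicase in G1, and CDC45, the GINS complex and MCM10 help to start it in S phase. Polymerases, the PCNA clamp and its RFC loader then copy DNA from nucleotides that the ribonucleotide reductase subunits RRM1 and RRM2 help to supply.

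The guide sequences are shown because the targeted gene was the check of the labels and because the guides cut far apart in it.
sgPHF8-1: gtcacactcgatcatgaagc
sgPHF8-3: tcctcctgagcctaaacaag
On GRCh37, the build of the deposited counts, sgPHF8-1 matched chrX:54069090-54069109 on the plus strand next to the PAM GGG, in coding sequence of exon 2 of the 22 exons of the canonical PHF8 transcript. The sgPHF8-3 guide matched chrX:53966772-53966791 on the minus strand next to the PAM AGG, in coding sequence of exon 21. PHF8 RNA had 655, 606 and 634 normalized counts (the authors' counts times 1 constant per library) in sgScr A, B and C, 564, 571 and 565 with sgPHF8-1, and 400, 387 and 434 with sgPHF8-3. All guide libraries lay below all sgScr libraries, and the sgPHF8-3 libraries lay below those of sgPHF8-1. The log2 fold change was -0.16 (SE 0.054, adjusted p = 0.027) with sgPHF8-1 and -0.63 (SE 0.057, adjusted p = 6.4e-09) with sgPHF8-3, and the difference between the guides was 0.48 (SE 0.058, adjusted p = 3.9e-06). The sgPHF8-1 call was lost without sgScr A, sgScr C, sgPHF8-1 A or sgPHF8-1 C (adjusted p = 0.12, 0.073, 0.073 and 0.057) and with DESeq2 (adjusted p = 0.1). The RNA level does not measure the protein, which was not analysed here. By Western blot, the study reported efficient knockout of PHF8 with both guides in SKMEL-147 cells.

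The libraries held 17366120 to 19838142 counts, and the 48 genes took 0.654% of them. All 48 passed the low-count filter, with mean counts from 180 to 15080 and a median of 1701, against a median of 419 over the 14614 genes tested. The median SE of a member's log2 fold change against sgScr was 0.037 with either guide, compared with 0.066 and 0.065 over all genes. In sgScr the median coefficient of variation of a member over the 3 libraries was 2.31%. In bulk RNA, fewer cells in S phase and less RNA per cell cannot be told apart.

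With sgPHF8-1, 10 of the 48 genes rose and 10 fell at an adjusted p under 0.05 (edgeR, adjusted over all genes tested), or 20.8% in each direction, beside 15.2% higher and 15.7% lower over all genes. With sgPHF8-3, 18 rose (37.5%) and 1 fell (2.08%), beside 9.48% higher and 9.78% lower over all genes. For the mean of both guides against sgScr, 13 rose and 6 fell, beside 14.7% and 14.9%. Both guide groups were compared with the same sgScr libraries, so these counts are not independent. Shares of the members and of all genes, here and below, were not taken at equal precision. The median SE was 0.037 for the members with either guide, against 0.066 and 0.065 over all genes. With a smaller SE, a change of the same size passes the test more readily. All changes were small. The members' log2 fold changes ran from -0.27 to 0.25 with sgPHF8-1 and from -0.11 to 0.27 with sgPHF8-3, their medians were -0.003 and 0.08, and the median size of a change was 0.08 with either guide, against 0.13 and 0.10 over all genes.

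Of the calls, 7 of the 10 that rose with sgPHF8-1 were kept whichever library was left out (E2F7, CDK4, CDC25A, GINS4, FEN1, RPA2 and RRM2), as were 6 of the 10 that fell (E2F2, RB1, RBL1, MCM3, MCM6 and POLA1). With sgPHF8-3, 10 of the 18 that rose were kept (CDC25A, CDC6, GMNN, ORC1, GINS3, RFC4, FEN1, RPA2, RRM1 and RRM2).

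The difference in balance was present in each library. The median member's log2 ratio to the sgScr mean was -0.014 to 0.006 in the sgScr libraries and -0.011 to 0.008 in the sgPHF8-1 libraries. In the sgPHF8-3 libraries it was 0.066 to 0.081, and 37 to 40 of the 48 genes lay above the sgScr mean there, compared with 22 to 25 in the sgPHF8-1 libraries. The summed normalized counts of the 48 genes were 119640 ± 407 (SD, n = 3) in sgScr, 120098 ± 1560 with sgPHF8-1 and 124495 ± 752 with sgPHF8-3. For 14 genes (29.2%) all sgPHF8-1 libraries lay above all sgScr libraries and for 13 (27.1%) all lay below, beside 21.1% in each direction over all genes tested. For sgPHF8-3 the numbers were 27 (56.2%) and 2 (4.17%), beside 18.7% above and 17.8% below over all genes.

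**Figure D1:**
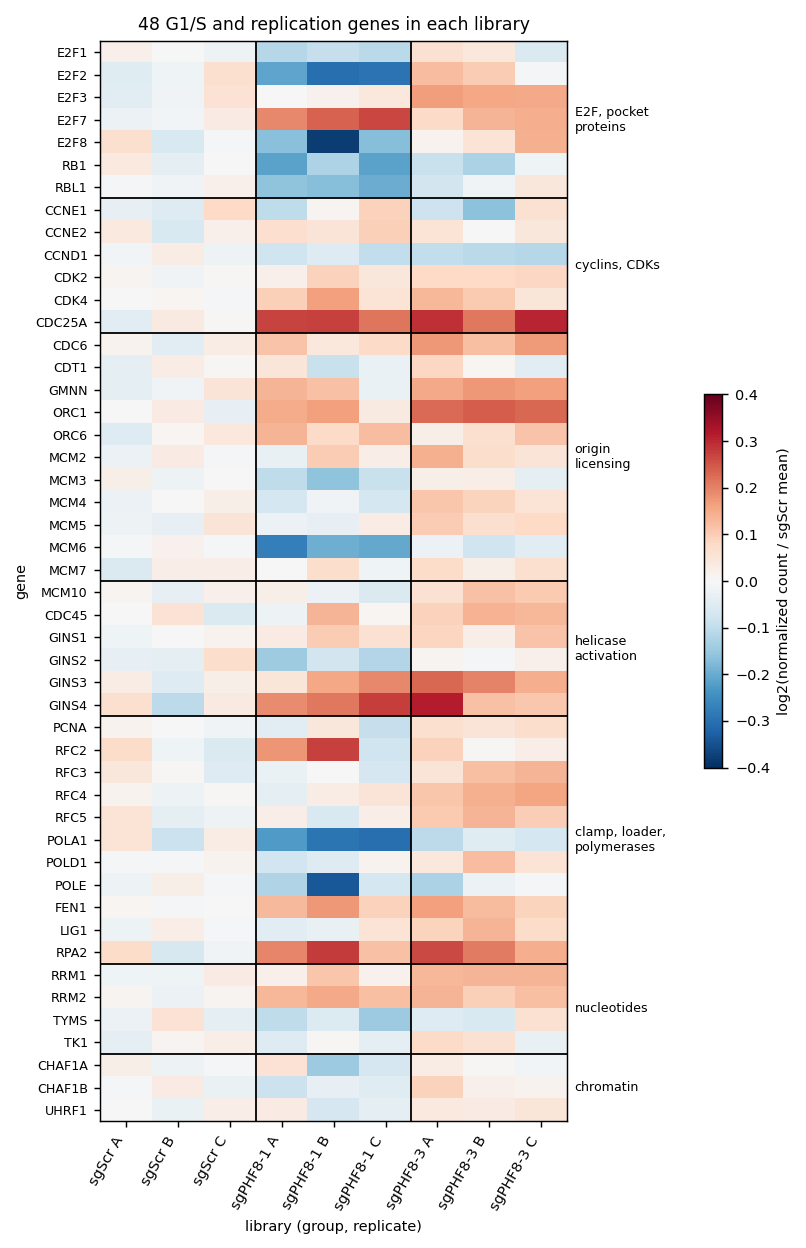
Each square is the log2 ratio of a gene's normalized count in a library (columns, by group and replicate) to the mean of the 3 sgScr libraries, for the 48 genes (rows) grouped by role. The sgPHF8-1 columns mix red (higher) and blue (lower) squares within most roles, whereas the sgPHF8-3 columns are mostly red, with medians of 0.066 to 0.081.

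Promoter sequence is shown for 6 genes, 5 that fell with sgPHF8-1 and CDC25A, which rose with both guides, so that the letter patterns counted next can be seen. The sequences are the 150 bases before the transcription start in RefSeq (GRCh38.p14), read along the gene, and the capitals mark matches to 4 letter patterns of the kind E2F factors bind, TTTCGCGC, TTTCCCGC, TTTGGCGC and TTTGCCGC, on either strand.
E2F1: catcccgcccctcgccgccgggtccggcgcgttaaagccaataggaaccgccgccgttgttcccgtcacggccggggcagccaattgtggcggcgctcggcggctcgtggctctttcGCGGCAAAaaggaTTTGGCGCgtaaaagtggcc
E2F2: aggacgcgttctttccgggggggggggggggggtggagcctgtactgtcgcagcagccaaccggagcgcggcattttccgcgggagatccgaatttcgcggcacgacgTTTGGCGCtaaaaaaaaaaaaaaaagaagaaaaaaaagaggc
RBL1: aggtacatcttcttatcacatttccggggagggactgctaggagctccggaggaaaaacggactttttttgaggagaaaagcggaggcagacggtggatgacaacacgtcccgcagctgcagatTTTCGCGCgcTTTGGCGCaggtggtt
MCM6: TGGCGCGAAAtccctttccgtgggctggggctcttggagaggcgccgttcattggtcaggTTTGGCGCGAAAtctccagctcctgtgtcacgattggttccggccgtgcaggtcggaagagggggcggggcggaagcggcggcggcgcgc
POLA1: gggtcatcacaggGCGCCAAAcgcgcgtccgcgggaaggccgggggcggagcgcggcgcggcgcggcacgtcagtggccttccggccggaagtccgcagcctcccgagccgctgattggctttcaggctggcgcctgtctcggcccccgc
CDC25A: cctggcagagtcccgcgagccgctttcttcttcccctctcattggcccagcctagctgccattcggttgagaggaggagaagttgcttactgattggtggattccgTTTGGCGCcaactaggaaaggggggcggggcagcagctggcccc
Their positions are chr20:33686386-33686535, minus strand, for E2F1, chr1:23531234-23531383, minus strand, for E2F2, chr20:37095998-37096147, minus strand, for RBL1, chr2:135876444-135876593, minus strand, for MCM6, chrX:24693768-24693917, plus strand, for POLA1 and chr3:48188418-48188567, minus strand, for CDC25A. MCM6 has 3 complete matches within these bases, 2 of which overlap, and a further match that begins just upstream and overlaps the other, E2F1 and RBL1 have 2 each, and E2F2, POLA1 and CDC25A have 1.

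RefSeq promoter windows (250 bases before to 50 after the start) were matched for 40 of the 48 genes. At least 1 E2F-type pattern was present in 21 of the 40 windows (52.5%), against 1164 of all 35116 windows (3.31%), which include noncoding genes. Of the members with a window, it was present in 7 of the 8 that fell with sgPHF8-1, in 12 of the 24 not called and in 2 of the 8 that rose. With sgPHF8-3 it was present in 5 of the 15 that rose and 16 of the 25 not called. The letters CCAAT, the core of the site of the factor NF-Y, were in 22 of the 40 windows (55%) against 34.6% of all windows, and in 5 of 8 both among those that rose and among those that fell with sgPHF8-1. These are letter matches, not measured binding, and counts of 8 genes were not tested. The RefSeq start used for RB1, ORC1 and UHRF1 lay over 1000 bases inside the annotated gene, so their windows may not be the main promoter.

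The E2F and pocket protein genes moved apart. With sgPHF8-1, E2F1, E2F2, E2F8, RB1 and RBL1 fell and E2F7 rose, that is 5 lower (71.4%) and 1 higher (14.3%) of 7, beside 15.7% and 15.2% over all genes, and 3 lower and 1 higher by DESeq2. With sgPHF8-3, E2F3 and E2F7 rose (28.6%, beside 9.48% over all genes) and none fell by edgeR or DESeq2 (1 at an unadjusted p under 0.05), beside 9.78%. E2F1, the activator named in earlier work on PHF8, had 1981, 1956 and 1929 normalized counts in sgScr, 1806, 1834 and 1816 with sgPHF8-1, and 2041, 2015 and 1877 with sgPHF8-3. Every sgPHF8-1 library was below every sgScr library, whereas the sgPHF8-3 libraries spanned the sgScr range. The level fell by 7.03% with sgPHF8-1 (log2 SE 0.035, adjusted p = 0.023), and with sgPHF8-3 the log2 fold change was 0.02 (95% interval -0.05 to 0.09, adjusted p = 0.79). The sgPHF8-1 call was lost without sgScr A, sgScr B or sgPHF8-1 A (adjusted p = 0.077, 0.064 and 0.073) and with DESeq2 (adjusted p = 0.069). From its own RNA sequencing and PCR tests, the study reported that PHF8 did not regulate E2F1 in melanoma cells.

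E2F2, another activator, was lower with sgPHF8-1 than in either other group. Its normalized counts were 373, 381 and 404 in sgScr, 333, 313 and 314 with sgPHF8-1, and 420, 414 and 384 with sgPHF8-3. The sgPHF8-1 libraries did not overlap the others, and the log2 fold change was -0.27 (SE 0.066, adjusted p = 0.0026), beside 0.08 (SE 0.063, adjusted p = 0.45) with sgPHF8-3. E2F3, the third activator, rose with sgPHF8-3 (log2 fold change 0.16, adjusted p = 0.0069), with 1074, 1064 and 1062 normalized counts against 927, 946 and 994 in sgScr. Without sgScr A the sgPHF8-3 call of E2F3 was lost (adjusted p = 0.051). With sgPHF8-1 its log2 fold change was 0.02 (adjusted p = 0.78). The repressor E2F8 had the lowest counts of the group, at 308, 282 and 292 in sgScr, 262, 226 and 261 with sgPHF8-1, and 297, 305 and 324 with sgPHF8-3. Library sgPHF8-1 B was the lowest, and the log2 fold change of -0.23 (SE 0.077, adjusted p = 0.023) became -0.16 without it (adjusted p = 0.13). The E2F8 call was also lost without sgScr A or sgScr C (adjusted p = 0.094 and 0.053) and with DESeq2 (adjusted p = 0.079). With sgPHF8-3 the log2 fold change of E2F8 was 0.07 (SE 0.074, adjusted p = 0.56).

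E2F7, the other repressor, went the opposite way to E2F8 with sgPHF8-1. Its normalized counts were 2581, 2601 and 2679 in sgScr, 2992, 3084 and 3153 with sgPHF8-1, and 2763, 2880 and 2897 with sgPHF8-3. The 3 groups did not overlap, with sgPHF8-1 the highest and sgPHF8-3 between it and sgScr. The log2 fold change was 0.23 (SE 0.033, adjusted p = 5.4e-06) with sgPHF8-1 and 0.12 (SE 0.033, adjusted p = 0.012) with sgPHF8-3. The sgPHF8-3 call was lost without sgScr A, sgScr B or sgPHF8-3 B (adjusted p = 0.072, 0.059 and 0.064).

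RB1, which restrains the activator E2Fs, had 2434, 2307 and 2366 normalized counts in sgScr, 2044, 2173 and 2041 with sgPHF8-1, and 2226, 2169 and 2343 with sgPHF8-3. The sgPHF8-1 libraries lay below sgScr and the sgPHF8-3 libraries overlapped it. The log2 fold change was -0.18 (SE 0.036, adjusted p = 0.00027) with sgPHF8-1 and -0.08 (SE 0.036, adjusted p = 0.13) with sgPHF8-3, which became -0.11 and passed the test without sgPHF8-3 C (adjusted p = 0.046). RBL1, which encodes p107, had 1162, 1156 and 1184 in sgScr, 1045, 1039 and 1019 with sgPHF8-1, and 1108, 1156 and 1205 with sgPHF8-3. All sgPHF8-1 libraries of RBL1 lay below the rest, for a log2 fold change of -0.18 (SE 0.040, adjusted p = 0.0015). With sgPHF8-3 it was -0.015 (SE 0.040, adjusted p = 0.84).

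**Figure D2:**
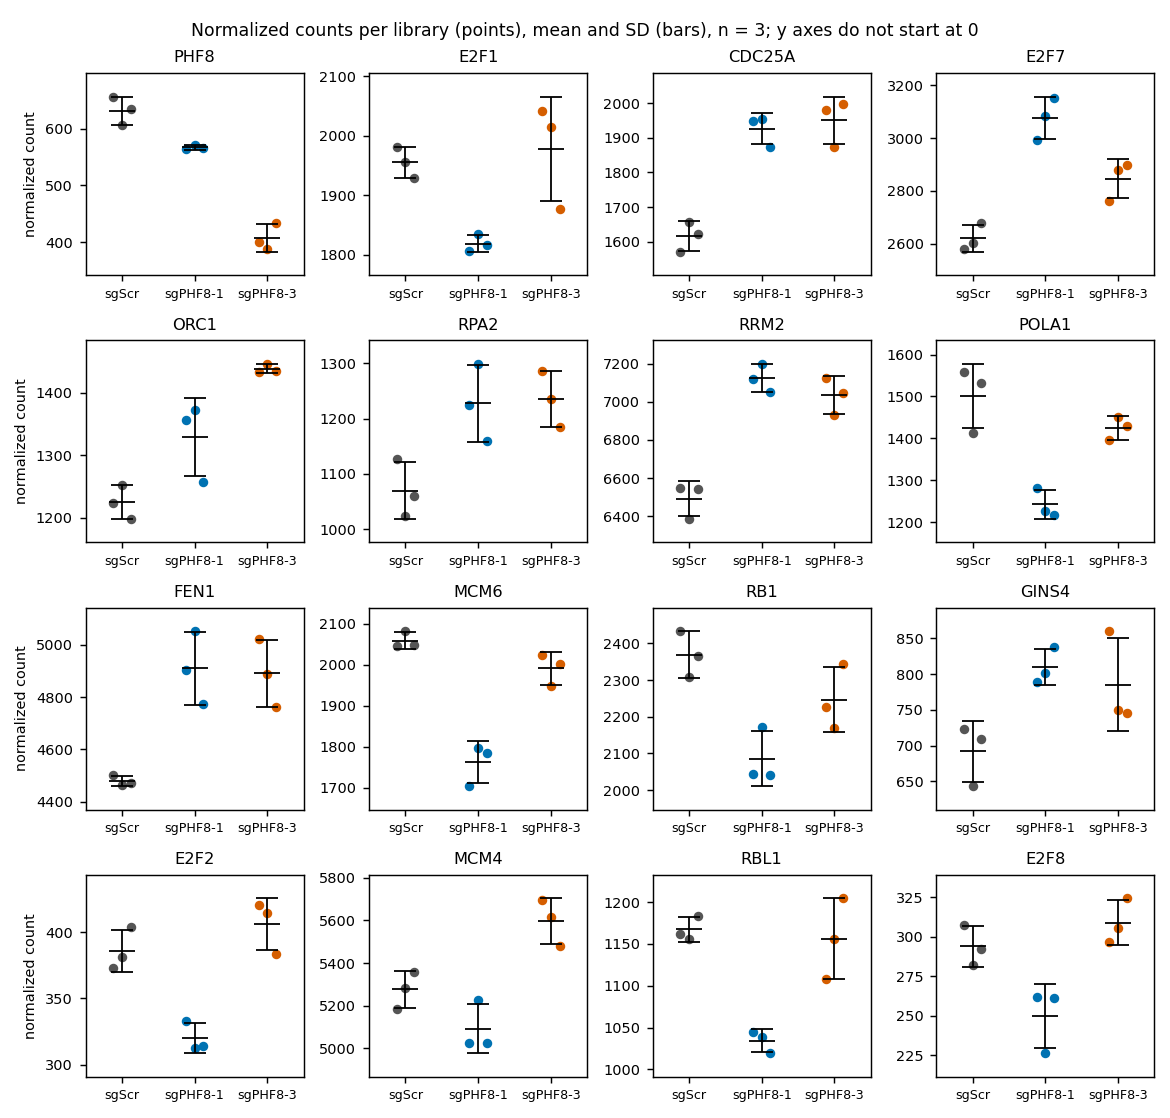
Points are the normalized counts of PHF8 and of 15 of the 48 genes in each library (x axis: group; y axis: normalized count, on a range of its own for each gene that does not start at 0), with the mean and SD of 3 libraries as bars. MCM6, POLA1, E2F2 and RBL1 show the sgPHF8-1 points below both other groups, whereas CDC25A, RPA2, RRM2 and FEN1 show both guide groups above sgScr.

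Among the cyclins, kinases and the phosphatase that act on them, CDC25A changed most. CDC25A removes inhibitory phosphates from CDK2, and its normalized counts were 1571, 1657 and 1624 in sgScr, 1949, 1954 and 1874 with sgPHF8-1, and 1981, 1872 and 1998 with sgPHF8-3. All 6 guide libraries lay above sgScr and the guides overlapped each other. It rose by 19.1% with sgPHF8-1 (log2 SE 0.036, adjusted p = 5.2e-06) and by 20.6% with sgPHF8-3 (log2 SE 0.036, adjusted p = 4.1e-06), the highest values of the 48 genes with either guide. CDK4, the partner of D-type cyclins, rose with either guide (log2 fold changes 0.10 and 0.09, adjusted p = 0.012 and 0.033). CCND1, which encodes cyclin D1 and had the highest counts of the 48 genes (not scaled for length), fell with either guide (-0.08 and -0.11, adjusted p = 0.033 and 0.0065), from a mean of 15633 normalized counts to 14824 and 14520. It was the 1 member that fell with sgPHF8-3, and that call was lost without sgScr B (adjusted p = 0.062). The sgPHF8-1 call of CCND1 was lost without sgScr A, B or C, sgPHF8-1 A or C, or sgPHF8-3 B (adjusted p = 0.053 to 0.17), and the sgPHF8-3 call of CDK4 without sgScr A, B or C or sgPHF8-3 A or B (adjusted p = 0.086 to 0.16) and without the low-count filter (adjusted p = 0.074). The cyclin E genes CCNE1 and CCNE2 and the kinase CDK2 did not pass the test with either guide, with log2 fold changes from -0.06 to 0.08. CDK2 passed it with sgPHF8-3 without sgPHF8-1 B (adjusted p = 0.036) and with only the compared groups in the fit (adjusted p = 0.035).

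Of the 11 origin licensing genes, 2 rose (ORC1, ORC6) and 2 fell (MCM3, MCM6) with sgPHF8-1, or 18.2% in each direction, close to the 15.2% and 15.7% over all genes. By DESeq2 0 rose and 2 fell. With sgPHF8-3, 4 rose (CDC6, GMNN, ORC1, MCM4), or 36.4% beside 9.48% over all genes, and 3 did by DESeq2, without MCM4. None fell with sgPHF8-3 by edgeR, by DESeq2 or at an unadjusted p under 0.05 (0 of 11). ORC1, the origin recognition subunit whose level varies through the cell cycle, had 1224, 1253 and 1198 normalized counts in sgScr, 1357, 1372 and 1257 with sgPHF8-1, and 1434, 1447 and 1436 with sgPHF8-3. The 3 groups were separate, though sgPHF8-1 C was only just above sgScr B. The log2 fold change was 0.23 (SE 0.038, adjusted p = 8.4e-05) with sgPHF8-3 and 0.12 (SE 0.039, adjusted p = 0.024) with sgPHF8-1. The sgPHF8-1 call was lost without sgScr A, sgScr C, sgPHF8-1 A or sgPHF8-1 B (adjusted p = 0.071, 0.099, 0.11 and 0.081), with DESeq2 and without the low-count filter (adjusted p = 0.085 and 0.082). ORC6 rose with sgPHF8-1 (log2 fold change 0.11, adjusted p = 0.029), a call lost without sgScr A, sgScr B, sgPHF8-1 A or sgPHF8-1 C (adjusted p = 0.17, 0.062, 0.11 and 0.076), with DESeq2 and without the low-count filter (adjusted p = 0.096 and 0.093), while CDC6 and the licensing inhibitor GMNN rose with sgPHF8-3 (0.16 and 0.16, adjusted p = 0.0025 and 0.0048). With sgPHF8-1 these had 0.08 each (adjusted p = 0.1 and 0.15), and passed the test without sgPHF8-1 B for CDC6 (adjusted p = 0.045) and without sgPHF8-1 C for GMNN (adjusted p = 0.019). CDT1, which loads the helicase with CDC6, had -0.02 and 0.02 with the 2 guides (adjusted p = 0.82 and 0.85).

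The 6 subunits of the MCM2-7 helicase did not move as a unit. MCM6 had 2046, 2083 and 2049 normalized counts in sgScr, 1704, 1798 and 1786 with sgPHF8-1, and 2025, 1948 and 2002 with sgPHF8-3. Every sgPHF8-1 library lay below every other library, and MCM6 fell by 14.4% (log2 SE 0.034, adjusted p = 9.4e-06). With sgPHF8-3 its log2 fold change was -0.05 (SE 0.033, adjusted p = 0.34). MCM3 fell with sgPHF8-1 (-0.12, adjusted p = 0.007), with 0.004 for sgPHF8-3 (adjusted p = 0.95). MCM4 had 5185, 5284 and 5359 in sgScr, 5024, 5227 and 5027 with sgPHF8-1, and 5693, 5617 and 5480 with sgPHF8-3. Its sgPHF8-3 libraries were the highest and its sgPHF8-1 libraries overlapped sgScr, with log2 fold changes of 0.09 (SE 0.030, adjusted p = 0.046) and -0.05 (SE 0.030, adjusted p = 0.21). The MCM4 call with sgPHF8-3 was lost in 10 of 15 alternatives, among them leaving out sgScr A, B or C, sgPHF8-1 A, or sgPHF8-3 A or B (adjusted p = 0.2, 0.12, 0.066, 0.057, 0.17 and 0.13). MCM2, MCM5 and MCM7 did not pass the test with either guide, with log2 fold changes from -0.009 to 0.09. With sgPHF8-3, MCM2 passed it without sgPHF8-1 B or sgPHF8-3 C (adjusted p = 0.018 and 0.042), and MCM5 without sgScr C or sgPHF8-1 B (adjusted p = 0.046 and 0.039).

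Of the 6 genes that activate the loaded helicase, 2 rose with sgPHF8-1 (GINS3, GINS4) and 3 rose with sgPHF8-3 (GINS3, GINS4, MCM10), or 33.3% and 50%, beside 15.2% and 9.48% over all genes. By DESeq2 1 rose with either guide, GINS4 with sgPHF8-1 and GINS3 with sgPHF8-3. None fell by edgeR or DESeq2 (1 with sgPHF8-1 and 0 with sgPHF8-3 at an unadjusted p under 0.05). GINS4 had 724, 643 and 709 normalized counts in sgScr, 789, 802 and 838 with sgPHF8-1, and 860, 750 and 745 with sgPHF8-3. All 6 guide libraries lay above sgScr, with log2 fold changes of 0.23 (SE 0.056, adjusted p = 0.0029) and 0.18 (SE 0.056, adjusted p = 0.022). Library sgPHF8-3 A was the highest and sgScr B the lowest, and the sgPHF8-3 call of GINS4 was lost without either (adjusted p = 0.21 and 0.16) and with DESeq2 (adjusted p = 0.057). GINS3, a subunit of the same complex, rose by 0.13 and 0.19 on the log2 scale (adjusted p = 0.031 and 0.0037), the sgPHF8-1 call being lost without sgScr B, sgPHF8-1 B or sgPHF8-1 C (adjusted p = 0.15, 0.062 and 0.15), with DESeq2 and without the low-count filter (adjusted p = 0.099 and 0.075). The other GINS genes did not pass the test, with log2 fold changes of 0.07 and 0.08 for GINS1 and -0.11 and 0.007 for GINS2. MCM10 rose with sgPHF8-3 (0.09, adjusted p = 0.049), but not without sgScr A, B or C, sgPHF8-1 A, or sgPHF8-3 B or C (adjusted p = 0.05 to 0.19) and not with DESeq2 or without the low-count filter (adjusted p = 0.12 and 0.18), and CDC45 had 0.04 and 0.12 (adjusted p = 0.54 and 0.055). With sgPHF8-3, CDC45 passed the test without sgScr B or sgPHF8-1 B (adjusted p = 0.046 and 0.025) and with only the compared groups in the fit (adjusted p = 0.031).

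The polymerase, clamp and Okazaki fragment genes held the largest fall with sgPHF8-1 of the 48. POLA1, the catalytic subunit of the polymerase that makes primers with primase, had 1558, 1413 and 1532 normalized counts in sgScr, 1282, 1227 and 1217 with sgPHF8-1, and 1395, 1452 and 1430 with sgPHF8-3. The sgPHF8-1 libraries lay below all others, and the level fell by 17.2% (log2 SE 0.040, adjusted p = 8.4e-06). With sgPHF8-3, which overlapped sgScr, the log2 fold change was -0.07 (95% interval -0.16 to 0.007, adjusted p = 0.2). POLE, the catalytic subunit of the leading strand polymerase, also fell with sgPHF8-1 (-0.17, adjusted p = 0.007), with 2316, 1989 and 2400 normalized counts against 2486, 2560 and 2510 in sgScr, library sgPHF8-1 B being the lowest, and the call was lost without it (-0.09, adjusted p = 0.059). POLD1, the catalytic subunit of the lagging strand polymerase, did not pass the test with either guide (-0.04 and 0.07).

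FEN1 and RPA2 rose with both guides. FEN1, the nuclease that trims Okazaki fragment flaps, had 4500, 4463 and 4471 normalized counts in sgScr, 4903, 5053 and 4775 with sgPHF8-1, and 5021, 4887 and 4762 with sgPHF8-3. RPA2, a subunit of the complex that coats single-stranded DNA, had 1126, 1024 and 1060, then 1224, 1299 and 1160, then 1286, 1235 and 1184. For both genes all 6 guide libraries lay above sgScr and the guides overlapped. The log2 fold changes were 0.13 (SE 0.031, adjusted p = 0.0016) and 0.13 (SE 0.031, adjusted p = 0.0043) for FEN1. For RPA2 they were 0.20 (SE 0.045, adjusted p = 0.0014) and 0.21 (SE 0.045, adjusted p = 0.0017). The clamp loader genes RFC4 and RFC5 and the ligase gene LIG1 rose with sgPHF8-3, by 0.14, 0.11 and 0.10 on the log2 scale, with sgPHF8-1 values of 0.01, 0.00 and -0.006. The RFC5 call was lost without sgScr B or C or sgPHF8-3 A or B, and the LIG1 call without sgScr A, B or C, sgPHF8-1 A, or sgPHF8-3 A or B (adjusted p = 0.056 to 0.2). Both were also lost with DESeq2 (adjusted p = 0.11 and 0.13) and without the low-count filter (adjusted p = 0.11 and 0.17). PCNA, RFC2 and RFC3 did not pass the test with either guide, although RFC3 rose with sgPHF8-3 without sgPHF8-1 B or sgPHF8-3 A (adjusted p = 0.042 and 0.043) and RFC2 rose with sgPHF8-1 without sgPHF8-1 C (log2 fold change 0.22 in place of 0.13, adjusted p = 0.007). RFC2 varied most with sgPHF8-1, at 588, 628 and 492 normalized counts.

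RRM2, the ribonucleotide reductase subunit that is made in S phase, had 6546, 6384 and 6542 normalized counts in sgScr, 7119, 7201 and 7053 with sgPHF8-1, and 7128, 6934 and 7048 with sgPHF8-3. All 6 guide libraries were above sgScr, and it rose by 9.75% (log2 SE 0.028, adjusted p = 0.00064) and 8.40% (log2 SE 0.028, adjusted p = 0.0046). RRM1, the larger subunit, rose with sgPHF8-3 (log2 fold change 0.14, adjusted p = 0.0022), with 0.05 for sgPHF8-1 (adjusted p = 0.25). The thymidylate genes TYMS and TK1 did not pass the test with either guide, with log2 fold changes from -0.10 to 0.04. None of the chromatin genes passed it, by edgeR or DESeq2 or at an unadjusted p under 0.05 (0 of 3), namely the histone chaperone subunits CHAF1A and CHAF1B and the maintenance methylation factor UHRF1, with log2 fold changes from -0.06 to 0.04.

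**Figure D3:**
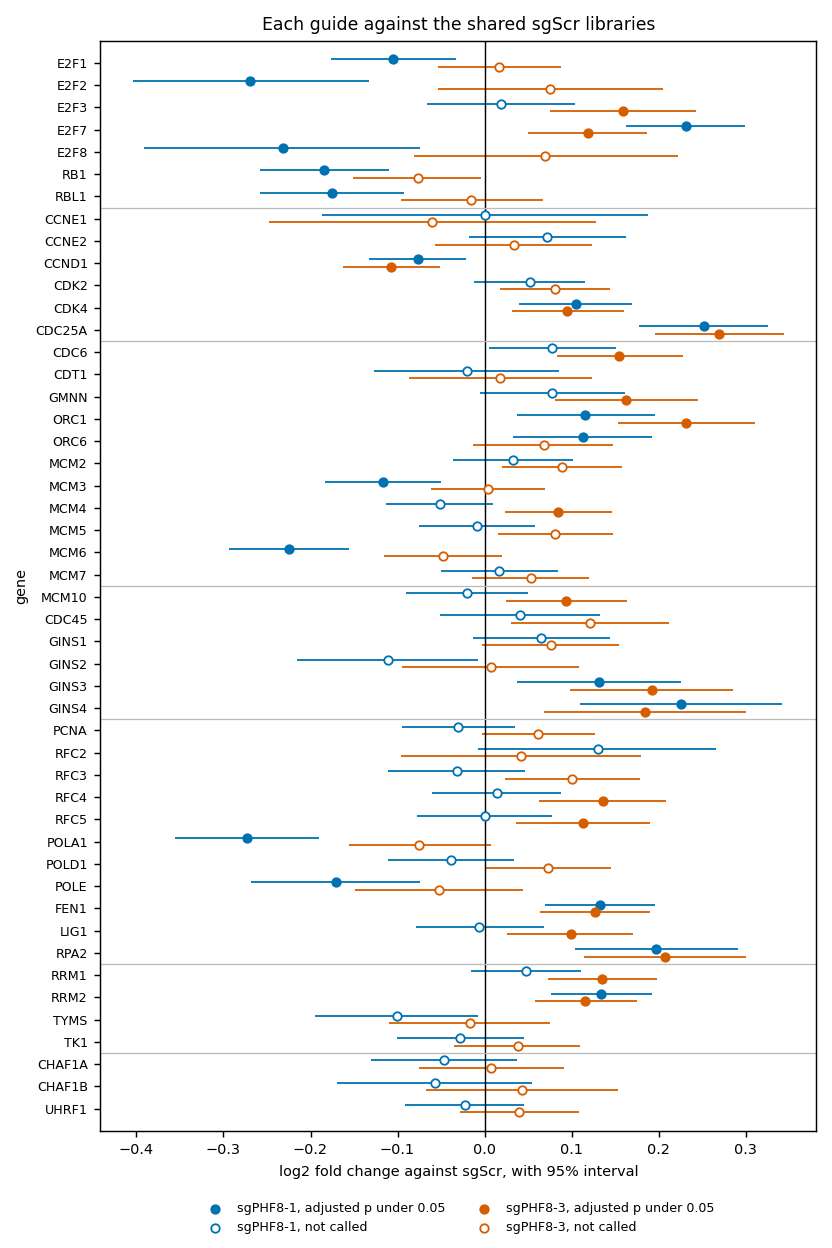
Points are each gene's log2 fold change against sgScr (x axis) for sgPHF8-1 (blue) and sgPHF8-3 (orange), with 95% intervals as lines; filled points had an adjusted p under 0.05 and genes are ordered by role, separated by grey lines. CDC25A lies furthest right of 0 for both guides (0.25 and 0.27), and POLA1 furthest left for sgPHF8-1 (-0.27).

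The guides were also compared with each other, in the same fit over all 9 libraries. With sgPHF8-1, 13 of the 48 genes were lower than with sgPHF8-3 and 1 was higher, beside 5.83% lower and 4.74% higher over all genes. The median log2 difference was -0.08, and 38 of the 48 were negative. E2F7 was the 1 higher gene (0.11, SE 0.033, adjusted p = 0.029), and that call was lost without sgPHF8-1 C, sgPHF8-3 A or sgPHF8-3 B (adjusted p = 0.11, 0.14 and 0.067). The lower genes included the E2F genes E2F2 (-0.34, SE 0.066, adjusted p = 0.0011), E2F8 (-0.30, SE 0.077, adjusted p = 0.012) and E2F1 (-0.12, SE 0.035, adjusted p = 0.025). The E2F8 difference was lost without sgPHF8-1 B or sgPHF8-3 C (adjusted p = 0.058 and 0.062). The E2F1 difference was lost without sgPHF8-1 A, sgPHF8-1 C, sgPHF8-3 A or sgPHF8-3 B (adjusted p = 0.084, 0.053, 0.11 and 0.12). RBL1 differed by -0.16 (SE 0.041, adjusted p = 0.012), but not past the test without sgPHF8-3 C (adjusted p = 0.079).

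Replication genes in the same contrast were led by MCM6 (-0.18, SE 0.034, adjusted p = 0.001), POLA1 (-0.20, SE 0.041, adjusted p = 0.0022) and MCM4 (-0.14, SE 0.030, adjusted p = 0.0036). These 3 and E2F2 kept their calls in all refits run for this contrast, at the same threshold. Under the call rule that also asks for a log2 change over 0.25 in size, MCM6, POLA1 and MCM4 were not called and 2 members were lower. The other genes lower with sgPHF8-1 were E2F3, MCM3, MCM10, RFC3, RFC4 and POLD1, with log2 differences of -0.11 to -0.14, and each of these calls was lost on leaving out at least 1 library. By DESeq2, 7 members were lower, and the calls of E2F1, E2F3, MCM10, RFC3, RFC4 and POLD1 were lost (adjusted p = 0.061 to 0.097). The number of lower genes was 8 without sgPHF8-1 A, 6 without sgPHF8-3 B and 6 without sgPHF8-3 C. For CDC25A, RPA2, RRM2, FEN1 and GINS4, which rose with both guides, the guides were not called different, with log2 differences of -0.02, -0.010, 0.02, 0.006 and 0.04 and 95% intervals that reached from -0.10 to 0.16 at their widest.

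The mean of both guides was also set against sgScr. CDC25A rose by 0.26 (SE 0.031, adjusted p = 3.9e-07), RPA2 by 0.20 (SE 0.039, adjusted p = 0.00028) and E2F7 by 0.18 (SE 0.029, adjusted p = 4e-05) on the log2 scale. ORC1 (0.17, SE 0.034), GINS4 (0.20, SE 0.049), RRM2 (0.13, SE 0.025) and FEN1 (0.13, SE 0.027) also rose, as did GINS3, CDK4, CDC6, GMNN, ORC6 and RRM1. POLA1 (-0.17, SE 0.034, adjusted p = 0.00034), MCM6 (-0.14, SE 0.029, adjusted p = 0.00064) and RB1 (-0.13, SE 0.031, adjusted p = 0.0019) fell, with CCND1, POLE and RBL1. Leaving out 1 library lost the calls of CDC6, GMNN, ORC6, RRM1, CCND1, POLE or RBL1 (adjusted p up to 0.061, 0.087, 0.28, 0.077, 0.058, 0.15 and 0.15). For CDC6 and CCND1 this was sgScr B alone, and for the others sgScr B and at least 1 further library, each left out singly. DESeq2 lost the calls of ORC6, POLE and RBL1 (adjusted p = 0.13, 0.064 and 0.12). E2F1 had -0.04 (SE 0.030, adjusted p = 0.29). The number of genes that fell was 3 without sgScr B.

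A further 58 genes of G1/S control and replication that are not among the 48 were set beside them, of which 57 passed the low-count filter. With sgPHF8-1, 11 rose (19.3%) and 9 fell (15.8%), close to the 15.2% and 15.7% over all genes. With sgPHF8-3, 16 rose (28.1%) and 1 fell (1.75%), beside 9.48% and 9.78%. By DESeq2, 9 rose and 8 fell with sgPHF8-1, and 12 rose and 1 fell with sgPHF8-3. For both guides together, DBF4, the activator of the origin kinase CDC7, rose by 0.23 (adjusted p = 3.3e-05), TFDP1, the dimer partner of E2F proteins, by 0.16 (adjusted p = 6.3e-05) and the helicase MCM8 by 0.16 (adjusted p = 0.00011) on the log2 scale. RBL2, which encodes the pocket protein p130, fell by 0.23 (adjusted p = 6e-06). TICRR, needed to fire origins, and MCM9 had -0.15 and -0.24 (adjusted p = 0.0093 and 0.023). Both fell with sgPHF8-1 (-0.24 and -0.41, adjusted p = 0.0007 and 0.0014), whereas with sgPHF8-3 the log2 fold changes were -0.06 and -0.07 (adjusted p = 0.41 and 0.66). For both guides together the TICRR call was lost without sgScr C (adjusted p = 0.056), and the MCM9 call without sgScr B, sgScr C or sgPHF8-3 C (adjusted p = 0.066, 0.091 and 0.052) and with DESeq2 (adjusted p = 0.065).

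Among 30 genes of G2 and mitosis, 4 rose (13.3%) and 5 fell (16.7%) with sgPHF8-1, close to the shares of 15.2% and 15.7% over all genes. With sgPHF8-3, 18 rose (60%) and none fell, beside 9.48% and 9.78%. By DESeq2, 1 rose and 4 fell with sgPHF8-1 and 16 rose with sgPHF8-3. Between the guides 15 of the 30 were lower with sgPHF8-1 (13 by DESeq2) and none higher, beside 5.83% lower and 4.74% higher over all genes. Neither count of 0 changed with DESeq2 or at an unadjusted p under 0.05 (0 of 30). The kinesins CENPE and KIF2C and the kinase AURKB had log2 fold changes of 0.21, 0.18 and 0.16 with sgPHF8-3 (adjusted p = 5.7e-05, 0.00041 and 0.0032) and of 0.07, 0.08 and 0.13 with sgPHF8-1 (adjusted p = 0.11, 0.061 and 0.014). CDC25B, the phosphatase that acts on CDK1, fell with sgPHF8-1 (-0.21, adjusted p = 5e-05) and had -0.07 with sgPHF8-3 (adjusted p = 0.19). MKI67, which encodes the Ki-67 protein of cycling cells, had 7111, 6742 and 6636 normalized counts in sgScr, 5113, 4769 and 5541 with sgPHF8-1, and 5683, 6464 and 7544 with sgPHF8-3. It fell by 24.7% with sgPHF8-1 (adjusted p = 1e-05), while the sgPHF8-3 libraries ran from below to above sgScr (log2 fold change -0.06, adjusted p = 0.56), and without sgPHF8-3 C the value was -0.17 (adjusted p = 0.015). The sgPHF8-1 call of AURKB was lost without sgScr A or sgPHF8-1 A (adjusted p = 0.085 and 0.08), with DESeq2 and without the low-count filter (adjusted p = 0.058 and 0.052), and KIF2C passed with sgPHF8-1 without sgScr C or sgPHF8-1 B (adjusted p = 0.025 and 0.045).

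**Figure D4:**
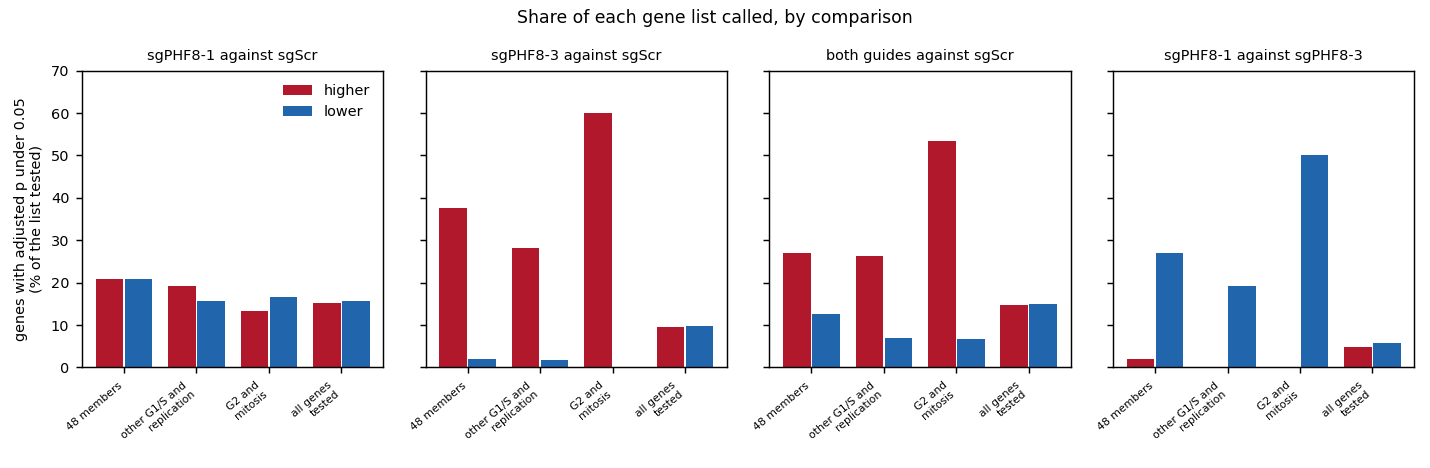
Bars are the percentage of each list's tested genes called higher (red) or lower (blue) at an adjusted p under 0.05, for the 48 genes, 57 other G1/S and replication genes, 30 G2 and mitosis genes and all 14614 genes, with a panel for each comparison. The higher share with sgPHF8-3 is 37.5% for the 48 genes and 60% for the mitosis genes, against 9.48% over all genes.

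Of 6 CDK inhibitor genes tested, which oppose entry into S phase, 5 fell (83.3%) and 1 rose (16.7%) with sgPHF8-1, beside 15.7% and 15.2% over all genes, and 3 fell (50%) with sgPHF8-3, beside 9.78%. CDKN1A, which encodes p21, split between the guides, with 4204, 4340 and 4350 normalized counts in sgScr, 5233, 5597 and 5328 with sgPHF8-1, and 3861, 3751 and 3604 with sgPHF8-3. The 3 groups did not overlap. It rose by 25.3% with sgPHF8-1 (log2 SE 0.033, adjusted p = 1.7e-08) and fell by 13.0% with sgPHF8-3 (log2 SE 0.033, adjusted p = 8.3e-05), a difference between guides of 0.53 (SE 0.033, adjusted p = 4.7e-11). CDKN1C, which encodes p57, fell with either guide, by 43.1% (adjusted p = 1.8e-09) and 29.7% (adjusted p = 5.1e-06), from 402, 446 and 465 normalized counts in sgScr to 254, 250 and 243 and to 321, 314 and 286. CDKN2A, which encodes p16 and ARF, fell as well (log2 fold changes -0.27 and -0.26, adjusted p = 1.7e-05 and 6.9e-05). CDKN2C and CDKN2D fell with sgPHF8-1 (log2 fold changes -0.16 and -0.24, adjusted p = 0.0043 and 0.0083), with -0.09 and -0.18 for sgPHF8-3 (adjusted p = 0.15 and 0.063). CDKN1B fell with sgPHF8-1 (-0.17, adjusted p = 0.0099), except without sgPHF8-1 C (adjusted p = 0.065), and had -0.04 with sgPHF8-3 (adjusted p = 0.61). CDKN2B was at 0 in 8 of 9 libraries and was not tested.

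The labelled cell type was checked against its markers. The dedifferentiated melanoma markers summed to 55668 to 56190 normalized counts in sgScr, 49131 to 50668 with sgPHF8-1 and 54559 to 55451 with sgPHF8-3. The 8 melanocyte lineage markers summed to 3431 to 3521, 3035 to 3156 and 3209 to 3299, with MLANA and TYR at 0 in all libraries. Of the other pigment genes, PMEL reached at most 11.2, DCT 5.1 and TYRP1 1.1 normalized counts, whereas SOX10 was at 2369 or more in every library. Markers of epithelial, blood and endothelial cells, 10 of 11 found by symbol, summed to 47 to 65, 28 to 44 and 32 to 47, with CD3E at 0. The 1 of these that was tested, the keratin KRT14, had 37.2, 44.0 and 38.9 normalized counts in sgScr, 15.8, 27.0 and 13.4 with sgPHF8-1, and 18.6, 28.7 and 16.9 with sgPHF8-3. It fell with either guide (log2 fold changes -1.10 and -0.90, adjusted p = 0.0013 and 0.0092). Both melanoma marker sums were also lower with either guide than in sgScr, the more so with sgPHF8-1, and the part of all these markers in the differences of the 48 genes was not tested. With sgPHF8-1, 3 of the 6 dedifferentiated markers fell (50%) and 1 rose (16.7%), beside 15.7% and 15.2% over all genes. NGFR, named after its values were seen like the others here, fell from a mean of 11693 normalized counts to 7199 (log2 fold change -0.70, adjusted p = 8.8e-15), SOX9 rose (0.25, adjusted p = 0.013) and AXL had -0.015 (adjusted p = 0.73). With sgPHF8-3 the same markers had 3 positive and 3 negative log2 fold changes (median 0.03), and the 1 called, NGFR (16.7%, beside 9.78% lower over all genes), fell to a mean of 9570 while the mean of AXL was 29234 beside 27921. Exons of 22 of the 48 genes overlap another annotated gene, 4 on the same strand, among them FEN1 with FADS2, and 19 on the opposite strand, among them RBL1, E2F8, GINS4, CDK4 and CCND1. The strand setting of the counting is not given in the sources used here, so reads of such partners may be included in these counts.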

How the data were processed

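RNA of 9 SKMEL-147 libraries was sequenced, 3 for each guide. The authors demultiplexed with bcl2fastq, aligned with STAR to hg19 and counted with HTSeq (submitters' notes), and annotation release and strand setting are not given in the sources used here. They deposited whole-number read counts per gene and a normalized signal, the same counts times 1 constant per library (0.929 to 1.082). All normalized values gave whole reads (100% within 0.001), so tests used the deposited counts. Symbols were joined to Ensembl rows by identical counts (22854 rows of 57736) and otherwise from the reference annotation.

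Genes were filtered with filterByExpr, scaled by TMM and tested with the quasi-likelihood test of edgeR 4.0.16 in R 4.3.3 on all 9 libraries. The contrasts were each guide, and the mean of both, against sgScr, and the guides against each other. P-values were two-sided and adjusted (Benjamini-Hochberg) over the 14614 genes tested, and called at 0.05. The members and gene lists were chosen with earlier results of these data known. All 48 members are named, and values by library are given for E2F1, the 10 members with the smallest p for both guides, the 6 with the smallest p between guides and a few others by role. Outside the members, the rule names PHF8, the CDK inhibitors and genes of 2 lists, other G1/S and replication and G2 and mitosis. Of each list it takes up to 3 genes called in each direction for both guides, by smallest p. Single cell type markers were named after their values were seen.

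Libraries held 17366120 to 19838142 counts. No pair of replicates agreed within sampling noise. The letters A, B and C were not treated as pairs in the main fit, and the labels do not say what they mean. Deviations of same-lettered libraries correlated at -0.083 to 0.053. That shows no strong shared effect but cannot tell whether such libraries shared a culture or preparation. Alternatives were RLE factors, no low-count filter, DESeq2 1.42.0, a replicate block, fits of only the compared groups, another call rule (unadjusted p under 0.05 and a log2 fold change over 0.25 in size) and leaving out each library. Leaving out sgPHF8-1 B and sgPHF8-3 C together, the libraries least like their groups, was added after seeing the data. Guide sequences came from the supplementary reagent table and were matched to GRCh37, and promoters came from RefSeq (GRCh38.p14).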

Additional observations from a re-analysis of the deposited data

Results flagged for a closer look

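Both guides target PHF8, and a test of the difference between them was passed by 14 of the 48 genes, 13 lower with sgPHF8-1 and 1 higher, beside 5.83% lower and 4.74% higher over all genes. The 13 lower genes became 7 by DESeq2 and 6 without sgPHF8-3 B or without sgPHF8-3 C. On the log2 scale, sgPHF8-1 minus sgPHF8-3 was -0.34 for E2F2, -0.30 for E2F8, -0.20 for POLA1, -0.18 for MCM6, -0.16 for RBL1, -0.14 for E2F3, -0.14 for MCM4, -0.13 for RFC3, -0.12 for E2F1, -0.12 for MCM3, -0.12 for RFC4, -0.11 for MCM10, -0.11 for POLD1 and 0.11 for E2F7. The same test was passed by 9 of the genes outside the 48 that were named by the rule given above. These were PHF8 (0.48), CDKN1A (0.53), CDKN1C (-0.30), MCM8 (-0.12), TICRR (-0.18), MCM9 (-0.34), CENPE (-0.14), CDC25B (-0.14) and MKI67 (-0.35). CDKN1A was the 1 gene of these 23 that was called in opposite directions against sgScr. Of the cell type markers named, NGFR (-0.41, adjusted p = 6.7e-09) and AXL (-0.08, adjusted p = 0.049) also passed it, and SOX9, SOX10 and KRT14 did not. Leaving out 1 library lost the differences of MCM8 (without sgPHF8-1 B, sgPHF8-3 B or sgPHF8-3 C, adjusted p = 0.058, 0.11 and 0.059) and TICRR (without the same libraries, adjusted p = 0.13, 0.094 and 0.16). The difference of MCM9 was lost without sgPHF8-1 B, sgPHF8-1 C, sgPHF8-3 A or sgPHF8-3 B (adjusted p = 0.059, 0.053, 0.054 and 0.15), and those of CENPE and CDC25B without sgPHF8-3 C (adjusted p = 0.073 and 0.07).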

How the results depend on the processing

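Changes of about 0.1 on the log2 scale lay near the limit of 3 libraries a group, where single libraries decide calls. The number of members lower with sgPHF8-1 than with sgPHF8-3, 13 as reported, was 8 without the low-count filter, 7 with DESeq2 and 6 to 13 when a library was left out. The 1 higher member there was 0 with only the compared groups and 0 to 1 with a library left out. Under the call rule with a fold limit (p under 0.05 and a log2 fold change over 0.25 in size), 1 rose and 2 fell with sgPHF8-1, 1 rose and 0 fell with sgPHF8-3, 1 rose and 0 fell for both guides, and 0 were higher and 2 lower between guides. With a library left out, members higher were 8 to 10 with sgPHF8-1, 12 to 23 with sgPHF8-3 and 9 to 14 for both guides, and members lower were 7 to 10, 0 to 2 and 3 to 6. Without sgPHF8-1 B and sgPHF8-3 C, an alternative chosen after seeing the data, 2 members fell with sgPHF8-3 and 20 rose. With DESeq2, 7 rose and 8 fell with sgPHF8-1, and 13 rose and 1 fell with sgPHF8-3. The replicate block gave 10 higher and 10 lower with sgPHF8-1, 16 and 1 with sgPHF8-3, 13 and 6 for both guides and 1 and 13 between guides. With sgPHF8-3 it called CDC45 (adjusted p = 0.048) and not MCM4, MCM10 or LIG1 (adjusted p = 0.057, 0.064 and 0.059), and 2 of 9 libraries correlated best with their own letter. Of 3894 values of single genes in refits, which leave out the fold limit, 3627 stayed on the same side of the threshold, called or not, 215 lost a call, 52 gained it and 0 reversed. Where a call was lost and the alternative used fewer libraries the test had fewer samples; otherwise the cause was not tested.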
